A study of Mus musculus with 4 samples.

Results

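The genes described here encode cell-surface receptors for Wnt proteins: the 8 Frizzled genes *Fzd1*, *Fzd2*, *Fzd3*, *Fzd4*, *Fzd6*, *Fzd7*, *Fzd8*, and *Fzd9*, and the 2 co-receptor genes *Lrp5* and *Lrp6*. These 10 genes were taken by name from the 23946 gene symbols listed for each library. They were followed in CD51+;CD200+ skeletal stem/progenitor cells, negative for CD45, Ter119, Tie2, Thy1, 6C3, and CD105, that were double sorted by FACS from wild-type CD-1 mice at postnatal day 3. The cells came from the posterior frontal (PF) suture, which fuses early in life, from the sagittal (SAG) and coronal (COR) sutures, which stay patent, and from the tibial growth plate (GP), the reference tissue. Each tissue gave 1 RNA-seq library made from pooled mice, so the spread between animals is unknown and the differences below carry no p-value. A suture sample was dissected with its osteogenic fronts, periosteum, and underlying dura mater before sorting, and no genetic or drug treatment separated the 4 groups.

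Frizzled proteins are multipass membrane receptors that bind the lipid of a Wnt protein through a cysteine-rich extracellular domain. LRP5 and LRP6 are co-receptors that cross the membrane once, and the complex of Wnt, Frizzled, and LRP recruits Dishevelled and Axin, which keeps β-catenin from being degraded. Frizzled receptors also act without LRP in planar cell polarity and other β-catenin-independent responses. LRP5 is known for its effect on bone mass, and canonical Wnt (cWnt) signaling is known to bear on the patency of skull sutures.

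Expression is given as FPKM, in which fragment numbers are divided by transcript length and by library depth, so that levels can be compared between genes within a library. The summed FPKM ranged from 447174 to 550958, and 11402 to 12263 genes reached 1 FPKM in a library. For long transcripts, the most frequent low value of FPKM times length was taken in each library. If that value is 1 fragment, which was not checked, the depth of PF was 43.1% that of SAG, while COR was at 87.0% and GP at 83.6%. By the same estimate the Wnt receptor genes were covered by an estimated 98.4 fragments (*Lrp5* in SAG) to 14698.5 fragments (*Fzd9* in SAG), and the counting error at the lowest of these was 10.1%. Counting error does not include the variation between animals or library preparations.

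The sorted identity was checked on marker lists. *Itgav* and *Cd200*, the genes of CD51 and CD200, were above 1 FPKM in every library, while 1 or 2 of the 5 genes of antigens sorted as absent reached 1 FPKM. The SAG library stood apart in markers of other cells. The summed FPKM of 11 chondrocyte genes was 5448 in SAG and 3489 in GP, against 202 in PF and 187 in COR, and all 11 reached 1 FPKM in every library. The sum of 8 choroid plexus genes was 5414 in SAG, 515 in PF, 223 in COR, and 135 in GP, with 7, 7, 4, and 3 of the 8 at 1 FPKM or more. Both sums were also highest in SAG without the most abundant gene of the list, *Col2a1* (3698 in SAG and at most 1758 elsewhere) or *Ttr* (311 in SAG and at most 125 elsewhere), a step chosen after seeing the data. The sum of 8 meningeal genes was 1760 in SAG, 383 in PF, 128 in COR, and 224 in GP, but *Nnat* alone gave 1545 of the SAG value, and the other 7 genes summed to 345 in PF, 215 in SAG, 206 in GP, and 102 in COR. Among the 9 osteoblast genes, *Col1a1* and *Col1a2* are listed at 0 in COR and *Col1a2* at 0 in GP. The summed level was from 2821 in SAG to 15882 in PF. Most of the PF sum came from *Col1a1* (4894) and *Col1a2* (8161), so its rank depends on the values listed at 0. Of the 9 genes, 7 were highest in COR, 1 in PF, and 1 in GP. Blood markers summed to 49.9 FPKM in PF and at most 12.6 elsewhere, with *Tyrobp* at 0 in every library and *Ptprc* below 1 FPKM. In bulk RNA, fewer cells of a type cannot be told apart from less RNA per cell.

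All 10 genes were detected in all 4 libraries. In PF all 10 reached 1 FPKM, and in each of SAG, COR, and GP 9 did, *Lrp5* being the exception. FPKM of 5 or more was reached by 7 genes in PF, SAG, and COR, and by 6 in GP. PF had the highest level of 5 genes (*Fzd2*, *Fzd4*, *Fzd7*, *Lrp5*, and *Lrp6*), SAG of 3 (*Fzd3*, *Fzd6*, and *Fzd9*), COR of *Fzd1*, and GP of *Fzd8*. Among the 13998 genes with 1 FPKM or more in a library, the shares highest in PF, SAG, COR, and GP were 35.2%, 28.4%, 19.9%, and 16.4%. The count of receptor genes highest in PF, 5 of 10, lay above its background, but on 10 genes this is a description only. When SAG was left out, a choice made after seeing its markers, 7 of the 10 were highest in PF, with *Fzd3* and *Fzd9* joining, against 43.3% of all genes. *Fzd3* was nearly level there, at 1.47 FPKM in PF, 1.42 in COR, and 1.41 in GP. Its log2 ratio of PF vs COR turned to -0.14 under quantile normalization. *Lrp5*, part of both counts, was no longer highest in PF after a correction for transcript GC content. On the log2(FPKM + 1) scale the median range between the highest and lowest library was 1.30 for the receptor genes and 1.01 for all 13998 genes, and 5 of the 10 receptor genes were above the latter.

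**Figure D1:**
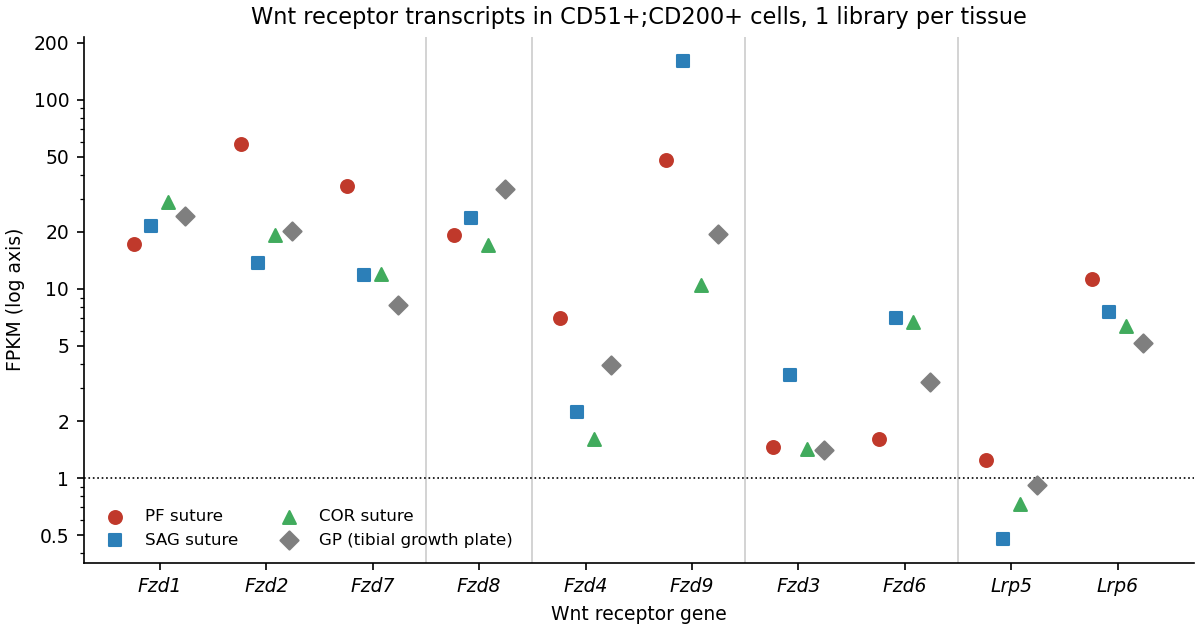
FPKM (log axis) of the 10 Wnt receptor genes in the PF, SAG, COR, and GP libraries. Each point is 1 library, grey lines separate receptor subfamilies, and the dotted line marks 1 FPKM. *Fzd2*, *Fzd7*, and *Fzd4* are highest in PF, *Fzd9* spans from 10.5 in COR to 161 in SAG, and *Fzd1* and *Fzd8* stay within a 2-fold range.

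By sequence, *Fzd1*, *Fzd2*, and *Fzd7* form the closest subfamily, with 83.3% of the bases of the shorter coding sequence identical between *Fzd1* and *Fzd2* in a pairwise alignment, 80.5% between *Fzd1* and *Fzd7*, and 79.9% between *Fzd2* and *Fzd7*. *Fzd9* was closest to *Fzd10* (72.7%), *Fzd8* to *Fzd5* (78.3%), and *Fzd3* to *Fzd6* (68.1%), and *Lrp5* and *Lrp6* shared 70.7%. No stretch of 50 bases of a receptor transcript was found in a transcript of another receptor gene or of any other coding gene of the GENCODE mm9 annotation. *Fzd1*, *Fzd2*, *Fzd7*, *Fzd8*, and *Fzd9* each have 1 exon in this annotation, *Fzd4* has 2, *Fzd3* and *Fzd6* have 7, and the LRP genes have 23. Transcript GC content was from 43.7% in *Fzd3* to 62.2% in *Fzd9*.

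The *Fzd1*, *Fzd2*, and *Fzd7* subfamily did not vary as a unit. These receptors are close relatives that can stand in for each other in β-catenin signaling. *Fzd2* (mm9 chromosome 11, 102465745 to 102469372) reached 58.2 FPKM in PF-CD51+;CD200+ cells, followed by 20.2 for GP, 19.2 for COR, and 13.7 for SAG. PF thus stood alone above 3 libraries that lay close together, 2.88-fold above the next one, and in PF *Fzd2* exceeded 87.3% of expressed genes. *Fzd7* (chromosome 1, 59538991 to 59543791) reached 34.9 FPKM in PF, followed by 11.9 for COR, 11.8 for SAG, and 8.20 for GP. PF was again alone, 2.93-fold above COR, while SAG and COR differed by a ratio of 1.01. *Fzd1* (chromosome 5, 4753842 to 4758216) instead had its lowest level in PF, at 17.2 FPKM, followed by SAG at 21.6, GP at 24.2, and COR at 28.8. The range of *Fzd1* was 1.67-fold, the narrowest of the 10 genes. The ratio of *Fzd2* to *Fzd1* within a library does not depend on how libraries were scaled to each other, and it was 3.38 in PF but only 0.835 in GP, 0.667 in COR, and 0.635 in SAG. The ratio of *Fzd7* to *Fzd1* was 2.02 in PF and 0.339 to 0.547 in the others.

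*Fzd4* (chromosome 7, 96552876 to 96558620), which encodes a receptor for Norrin as well as for Wnts, was the third Frizzled gene highest in PF. It reached 7.01 FPKM in PF, then 3.96 in GP, 2.23 in SAG, and 1.61 in COR. PF was 1.77-fold above GP, so the gap was smaller than for *Fzd2* and *Fzd7*. Beside the levels highest in PF, the summed FPKM of 7 smooth muscle, pericyte, and skeletal muscle markers was 785 in PF, 587 in GP, 321 in COR, and 65.7 in SAG, with *Myog* at 0 in PF, COR, and GP and *Acta1* at 0 in SAG. The part of those cells, or of the blood markers, in the PF levels was not tested.

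The RefSeq promoter table held 4 of the 10 genes, *Fzd1*, *Fzd4*, *Fzd7*, and *Fzd9*. The 250 bases before the start are shown for *Fzd4* and *Fzd7*, both highest in PF, and for *Fzd1*, lowest in PF, so that genes with PF at either end of their range can be read side by side. They are from build GRCm38.p6 and each has 1 exact match in mm9, at chr7:96552626-96552875 (plus strand) for *Fzd4*, chr1:59538741-59538990 (plus strand) for *Fzd7*, and chr5:4758217-4758466 (minus strand) for *Fzd1*. Each is written 5′ to 3′ on the strand of its gene. Capitals mark the letters of the GC box (GGGCGG) and of the TATA box (TATAAA) at any position, and their reverse complements. Overlapping matches are merged.
Fzd4: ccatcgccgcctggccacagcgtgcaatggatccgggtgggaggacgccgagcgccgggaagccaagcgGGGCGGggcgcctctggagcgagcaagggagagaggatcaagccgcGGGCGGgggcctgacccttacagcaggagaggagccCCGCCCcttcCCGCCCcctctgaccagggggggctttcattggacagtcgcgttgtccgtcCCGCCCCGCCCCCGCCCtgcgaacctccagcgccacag
Fzd7: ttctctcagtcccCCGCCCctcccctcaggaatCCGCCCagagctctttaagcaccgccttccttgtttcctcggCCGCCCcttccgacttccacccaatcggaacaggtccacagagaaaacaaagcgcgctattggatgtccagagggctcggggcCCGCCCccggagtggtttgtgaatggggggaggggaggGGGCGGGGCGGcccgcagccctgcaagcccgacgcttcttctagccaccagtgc
Fzd1: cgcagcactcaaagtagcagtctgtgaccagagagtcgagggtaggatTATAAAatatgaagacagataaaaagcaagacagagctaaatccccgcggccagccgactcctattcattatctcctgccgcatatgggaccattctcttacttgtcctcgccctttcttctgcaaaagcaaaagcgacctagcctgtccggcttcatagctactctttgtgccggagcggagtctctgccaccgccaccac

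The *Fzd9* window overlaps the transcript annotated in mm9 and is not described further. The *Fzd4* window held 7 GC boxes, the *Fzd7* window 6, and the *Fzd1* window 0, counted on both strands with overlaps. Of 27025 promoters of the same length, 32.9% held at least 1. The *Fzd1* window held the only TATAAA match of the 3, toward its 5′ end and far from the start. These letters were found anywhere in the window in 13.0% of promoters. The TCF/LEF motifs CTTTGAA and CTTTGAT were in none of the 3 windows and in 7.67% of all. CG dinucleotides numbered 25 for *Fzd4*, 17 for *Fzd7*, and 12 for *Fzd1*, against a median of 6. These are matches of letters in short windows and show neither binding nor its absence.

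*Fzd9* (chromosome 5, 135724808 to 135727100) varied most. It encodes a receptor whose loss in mice is known to lower bone formation. It was at 161 FPKM in SAG-CD51+;CD200+ cells, 48.2 in PF, 19.5 in GP, and 10.5 in COR, and even the closest neighbours in this order, GP and COR, were 1.85-fold apart. The SAG level exceeded 96.4% of expressed genes, the COR level 58.1%, and the 2 differed 15.3-fold. *Fzd10*, its closest relative by sequence, was also highest in SAG, at 6.10 FPKM. The other libraries held 0.648 (PF), 0.478 (COR), and 0.0521 (GP), the last value amounting to about 5.65 estimated fragments.

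The library with the highest *Fzd9* was also the library with the highest chondrocyte and choroid plexus sums. The chondrocyte sum in GP was 3489, 17.3-fold that of PF, while *Fzd9* was lower in GP (19.5 FPKM) than in PF (48.2 FPKM). The meningeal sum had the same order of the 4 libraries as *Fzd9* only through *Nnat*. Of the other 7 meningeal genes 3 were highest in PF, 3 in SAG, and 1 in GP, and their sum was highest in PF. *Ttr*, the most abundant choroid plexus gene, was at 5103 FPKM in SAG and 465 in PF. Without it the sum was 311 in SAG and lowest, at 49.6, in PF. *Aqp1* and *Enpp2* made up most of that sum outside SAG, at 41.1 and 83.0 FPKM in GP and 53.8 and 22.2 in COR. *Otx2* instead was at 168 FPKM in SAG, 10.3 in PF, 4.09 in COR, and 0.269 in GP. *Folr1*, *Kcnj13*, and *Clic6* were also highest in SAG and next in PF, while *Kl* was below 1 FPKM in every library and lowest in PF. None of the 8 choroid plexus genes was at 0 in a library, and of the meningeal genes *Slc6a13* was at 0 in COR and *Zic1* at 0 in GP. The part of these cells in the *Fzd9* level was not tested.

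**Figure D2:**
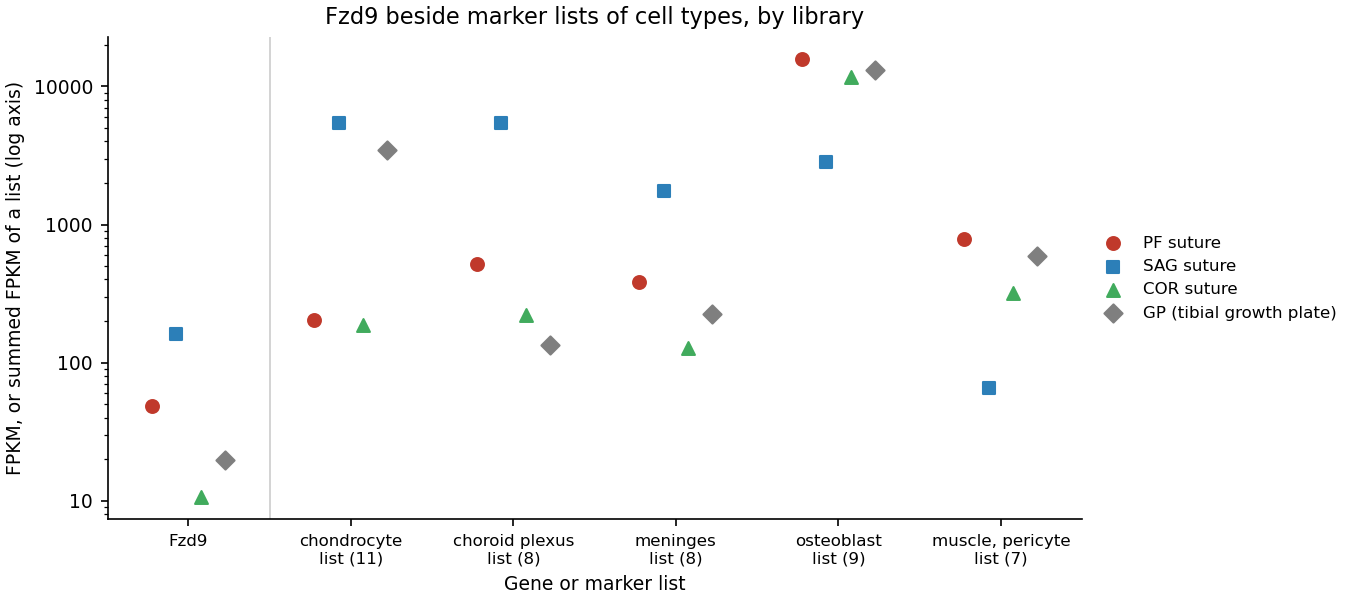
FPKM of *Fzd9* and summed FPKM of 5 marker lists in the 4 libraries (log axis), with the number of genes of each list in parentheses. Each point is 1 library. SAG is highest for *Fzd9* and for the chondrocyte, choroid plexus, and meningeal lists, the last through *Nnat*, and lowest for the osteoblast and muscle lists, while GP has a chondrocyte sum of 3489 at a *Fzd9* level of 19.5.

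*Fzd3* and *Fzd6*, which are known for planar cell polarity, were both highest in SAG. *Fzd6* (chromosome 15, 38837879 to 38869732) reached 7.01 FPKM in SAG and 6.70 in COR, against 3.21 in GP and 1.61 in PF. Of the 8 Frizzled genes it was the only one that was at least 4-fold lower in PF than in both patent sutures, with ratios of 4.34 for SAG over PF and 4.15 for COR over PF. SAG and COR differed by a ratio of 1.05. *Fzd3* (chromosome 14, 65819863 to 65881300) had 3.52 FPKM in SAG, while PF, COR, and GP had 1.47, 1.42, and 1.41. These last 3 lay within a ratio of 1.04, and SAG was 2.39-fold above the next. The marker sums of other cells given above for SAG stand beside these levels too, and their part was not tested.

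*Fzd8* (chromosome 18, 9212854 to 9216199), a high-affinity Wnt receptor, was highest in GP at 33.6 FPKM, followed by SAG at 23.8, PF at 19.2, and COR at 17.0. Its range was 1.97-fold, so *Fzd8* and *Fzd1* were the 2 receptor genes that varied by less than 2-fold. GP stood 1.41-fold above SAG, the next library.

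Of the co-receptors, *Lrp6* was the more abundant in every library. *Lrp6* (chromosome 6, 134396494 to 134516931) reached 11.3 FPKM in PF, followed by SAG at 7.56, COR at 6.33, and GP at 5.21. *Lrp5* (chromosome 19, 3584825 to 3686564) reached 1.25 FPKM in PF, followed by GP at 0.922, COR at 0.730, and SAG at 0.477. Both were highest in PF, but for *Lrp5* this did not hold after a correction for transcript GC content, where the log2 ratio of PF vs GP turned from 0.23 to -0.18. The ratio of *Lrp6* to *Lrp5* ranged from 5.64 in GP, through 8.68 in COR and 8.98 in PF, to 15.8 in SAG. The summed co-receptor level was 12.5 FPKM in PF and 6.13 to 8.03 in the other libraries.

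The make-up of the Frizzled pool was compared as the share of each gene in the summed FPKM of all 10 Frizzled genes, *Fzd5* and *Fzd10* included. The sum was 251 FPKM in SAG, 190 in PF, 116 in GP, and 98.97 in COR. In PF the largest share was that of *Fzd2* (30.7%), followed by *Fzd9* (25.4%) and *Fzd7* (18.4%). In SAG *Fzd9* alone made up 64.1%, and no other gene exceeded 9.48%. In COR the largest share was that of *Fzd1* (29.1%), and *Fzd2* and *Fzd8* followed with 19.4% and 17.2%. In GP it was that of *Fzd8* (29.1%), and *Fzd1* followed with 21.0%. The leading Frizzled transcript therefore differed among all 4 libraries. Without *Fzd9* the sum was 142 FPKM in PF and 88.4 to 96.0 in the other 3, and *Fzd1*, *Fzd2*, and *Fzd7* together made up 77.9% in PF, 67.8% in COR, 54.8% in GP, and 52.3% in SAG.

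**Figure D3:**
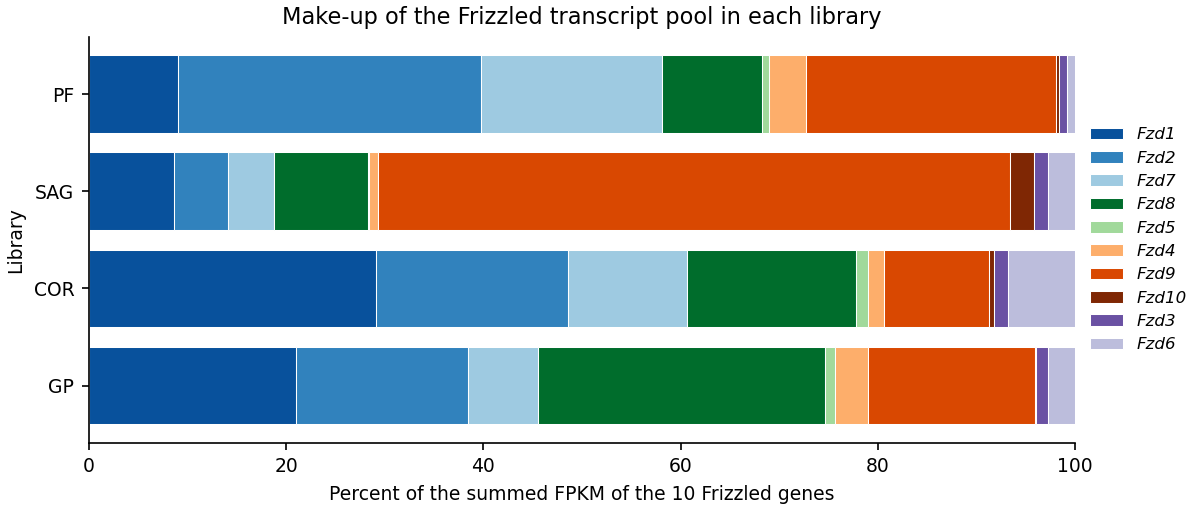
Percent of the summed FPKM of the 10 Frizzled genes contributed by each gene, 1 bar per library. Related genes have related colours. *Fzd9* fills 64.1% of the SAG bar, and *Fzd2* and *Fzd7* together are widest in PF.

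Ratios between libraries were read against all genes. They were taken as log2(FPKM + 1), a scale that shrinks ratios at low levels, for genes with 1 FPKM or more in at least 1 library of a pair. A ratio of 3-fold was counted as different. The study used this size of fold for genes that it also called significantly different, a condition not applied here. Between PF and SAG, *Fzd2* was at least 3-fold higher in PF (log2 ratio 2.01), where 6.64% of 13490 genes were, and *Fzd9* (-1.72) and *Fzd6* (-1.62) were lower, where 9.04% were. *Fzd7* (1.49) and *Fzd4* (1.31) were higher in PF without passing. Between PF and COR, *Fzd9* (2.09) and *Fzd4* (1.62) passed as higher in PF, where 6.81% of 12853 genes did, and no receptor gene passed as lower, where 4.87% did. *Fzd2* (1.55), *Fzd7* (1.47), and *Fzd6* (-1.56) were just short of the limit of 1.58. Between COR and SAG, *Fzd9* passed as lower in COR (log2 ratio -3.81), where 6.15% of 12720 genes passed as lower and 3.11% as higher. Only 0.700% of genes had a lower ratio than *Fzd9*. The other 8 genes compared had ratios between -0.90 and 0.46.

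Against the growth plate, *Fzd7* was the receptor gene that passed in PF (log2 ratio 1.96), among 5.72% of 13101 genes higher in PF and 6.24% lower. *Fzd2* was at 1.48 and *Fzd9* at 1.26. *Fzd9* passed in SAG (2.98), among 4.8% of 12929 genes higher in SAG and 3.86% lower. No receptor gene passed between COR and GP, where 1.2% of 12209 genes were higher and 3.2% lower. The ratio of *Fzd6* there (0.87) was nevertheless above that of 96.1% of all genes, since few genes differed between these libraries.

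The median log2 ratio of the receptor genes was 0.11 for PF vs SAG (10 genes), 0.56 for PF vs COR (10 genes), and -0.22 for COR vs SAG (9 genes). For every gene that passed the filter, the medians were 0.03, 0.05, and -0.02. Against GP it was 0.46 for PF (10 genes), 0.46 for SAG (9), and 0.01 for COR (9), and over all genes it was 0.03, 0.03, and 0.02. In PF vs COR 8 of 10 receptor genes were higher in PF, while in PF vs SAG 5 were higher and 5 lower. With so few genes and 1 library each, the medians are descriptions.

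**Figure D4:**
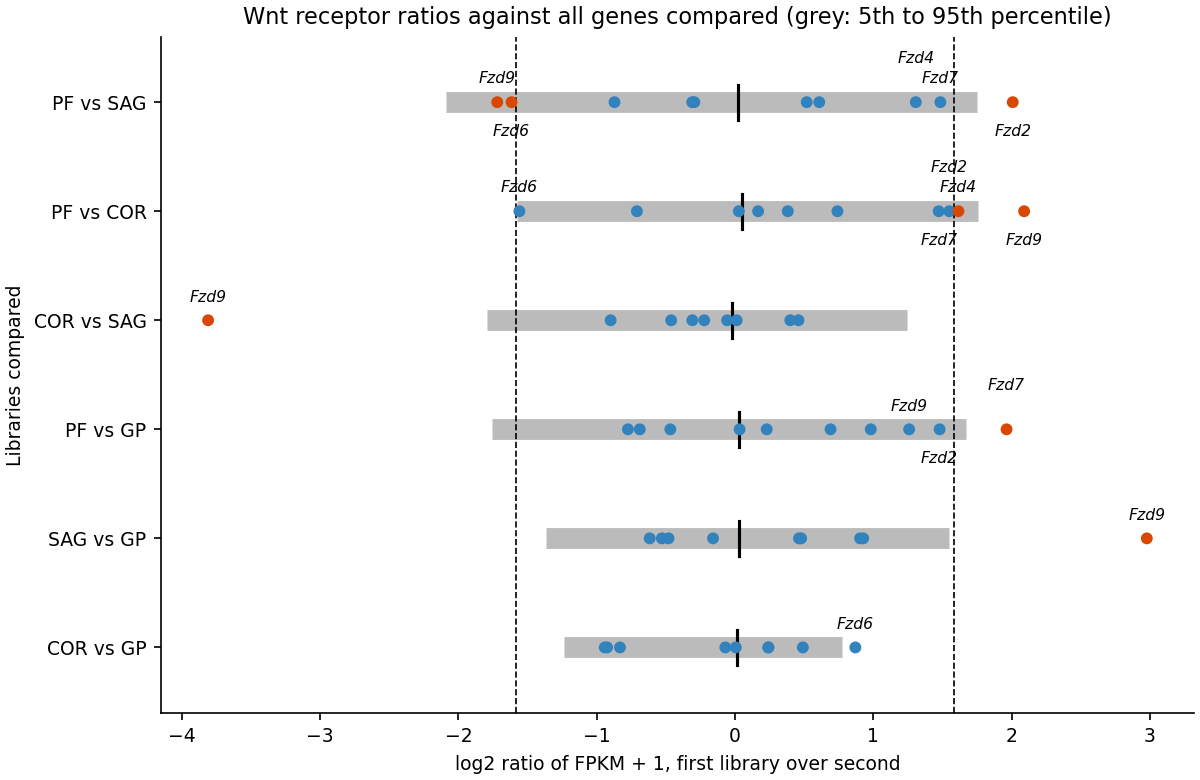
Log2 ratio of FPKM + 1 for the Wnt receptor genes in 6 comparisons of libraries. Points are receptor genes (orange where at least 3-fold, beyond the dashed lines), grey bars span the 5th to 95th percentile of all genes compared, and black ticks mark their median. *Fzd9* lies at -3.81 in COR vs SAG and 2.98 in SAG vs GP, and the points for COR vs GP lie between -0.94 and 0.87.

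Several of these calls changed with the setting. After a loess correction for transcript GC content, the PF vs SAG ratio of *Fzd2* was 1.579, against the limit of 1.585, and that of *Fzd6* was -1.25, so that *Fzd9* alone (-2.39) passed. For PF vs COR, *Fzd4* (1.78) and *Fzd9* (1.63) still passed. After quantile normalization *Fzd6* (-1.53) no longer passed in PF vs SAG, and in PF vs COR *Fzd4* (1.51) no longer passed while *Fzd6* (-1.60) did. *Fzd2*, *Fzd4*, *Fzd7*, and *Lrp6* stayed higher in PF than in SAG, COR, and GP under every pseudocount, scaling, and GC setting run, and *Fzd6* stayed lower in PF than in the other 3 libraries.

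The 5 genes that passed 3-fold in a comparison were placed among the 13998 expressed genes by the Euclidean distance between mean-centred log2(FPKM + 1) profiles over the 4 libraries. Nearest to *Fzd2* were *Rab7l1* (distance 0.11), *Ephb3* (0.13), and *Fam43a* (0.13), and to *Fzd7* *Zfp78* (0.06), *Zfp213* (0.10), and *Atp9a* (0.11). *Fzd4* was nearest to *Hdac7* (0.09), *Fjx1* (0.13), and *Prok2* (0.14), and *Fzd6* to *Abca5* (0.11), *Bmp3* (0.13), and *Asns* (0.14). For *Fzd9* 1 gene, *9330179D12Rik* (0.11), lay within 0.25, compared with 8 to 25 genes for the other 4, and *Stac* (0.33) and *Tmsb15b2* (0.37) came next. The distance was not scaled for range, and *Fzd9* had the widest log2 range of the receptor genes (3.81). Its low count therefore does not show that its order of libraries is rare. Among the receptor genes themselves, *Fzd2* and *Fzd7* were 0.71 apart, with 991 genes closer to *Fzd2*, and *Fzd2* and *Fzd4* were 0.78 apart. Profiles over 4 libraries are few points, and the distances describe likeness of level alone.

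Genes that act with Frizzled and LRP at the cell surface were followed as 4 lists of 29 genes. Outside the 10 receptors, 2 Frizzled genes were listed: *Fzd5* had 1.38 FPKM in PF, 1.25 in COR, 1.14 in GP, and 0.276 in SAG, and *Fzd10* passed 3-fold as higher in SAG against each of PF, COR, and GP. *Smo* and *Lrp4* passed in no comparison. Of the 5 single-pass Wnt receptor genes, *Ror1*, *Ror2*, *Ryk*, and *Ptk7* were compared and none passed 3-fold in the 6 comparisons, while *Musk* stayed below 1 FPKM. *Ryk* was the most abundant of them, at 27.7 FPKM in SAG to 54.4 in COR.

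R-spondins and their LGR receptors protect Frizzled and LRP from the ubiquitin ligases RNF43 and ZNRF3. The list has 9 genes, of which 6 or 7 reached 1 FPKM and were compared. In PF vs COR 3 of 7 were at least 3-fold higher and 0 lower (6.81% and 4.87% of all genes), and in PF vs SAG 1 of 7 and 0 (6.64% and 9.04%). In COR vs SAG 0 of 6 were higher and 2 lower (3.11% and 6.15%), and in PF vs GP 1 of 6 and 0 (5.72% and 6.24%). In SAG vs GP 1 of 7 were higher and 2 lower (4.8% and 3.86%), and in COR vs GP 1 of 7 and 2 (1.2% and 3.2%). With so few genes these shares are descriptions. *Lgr5* was at 10.8 FPKM in PF and 9.20 in GP, against 0.987 in SAG and 0.885 in COR. *Rspo3* was at 50.3 FPKM in SAG, 23.5 in PF, 21.8 in GP, and 6.22 in COR, the same order as *Fzd9* in the 4 libraries. *Rspo1* had 12.2 FPKM in PF, 6.40 in COR, 4.18 in SAG, and 0.325 in GP. *Rnf43* was below 1 FPKM in every library, and *Znrf3* was at 0.562 FPKM in PF and 1.84 in COR.

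Of 11 further surface partners, 10 reached 1 FPKM in a library, and *Kremen2* was at 0 in all 4. *Shisa3*, whose protein is known to hold back Frizzled in the endoplasmic reticulum, had 151 FPKM in PF, 35.1 in COR, 24.9 in SAG, and 0.186 in GP, so that the sutures were all well above the growth plate. *Ndp*, the gene of Norrin, had 6.38 FPKM in SAG, 1.18 in GP, 0.518 in COR, and 0.0611 in PF. *Tspan12*, whose protein is a partner of FZD4 in Norrin signaling, had 7.87 FPKM in SAG, 2.38 in COR, 2.34 in GP, and 1.05 in PF. *Fzd4* itself had a different order, being highest in PF. *Mesdc2*, the gene of the LRP chaperone MESD, differed little, at 44.6 FPKM in PF and 30.9 to 32.7 in the other libraries. In all, the 4 lists held 2 genes higher and 3 lower in PF vs SAG, among 25 compared (6.64% and 9.04% of all genes), and 4 higher and 0 lower in PF vs COR, among 23 (6.81% and 4.87%).

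**Figure D5:**
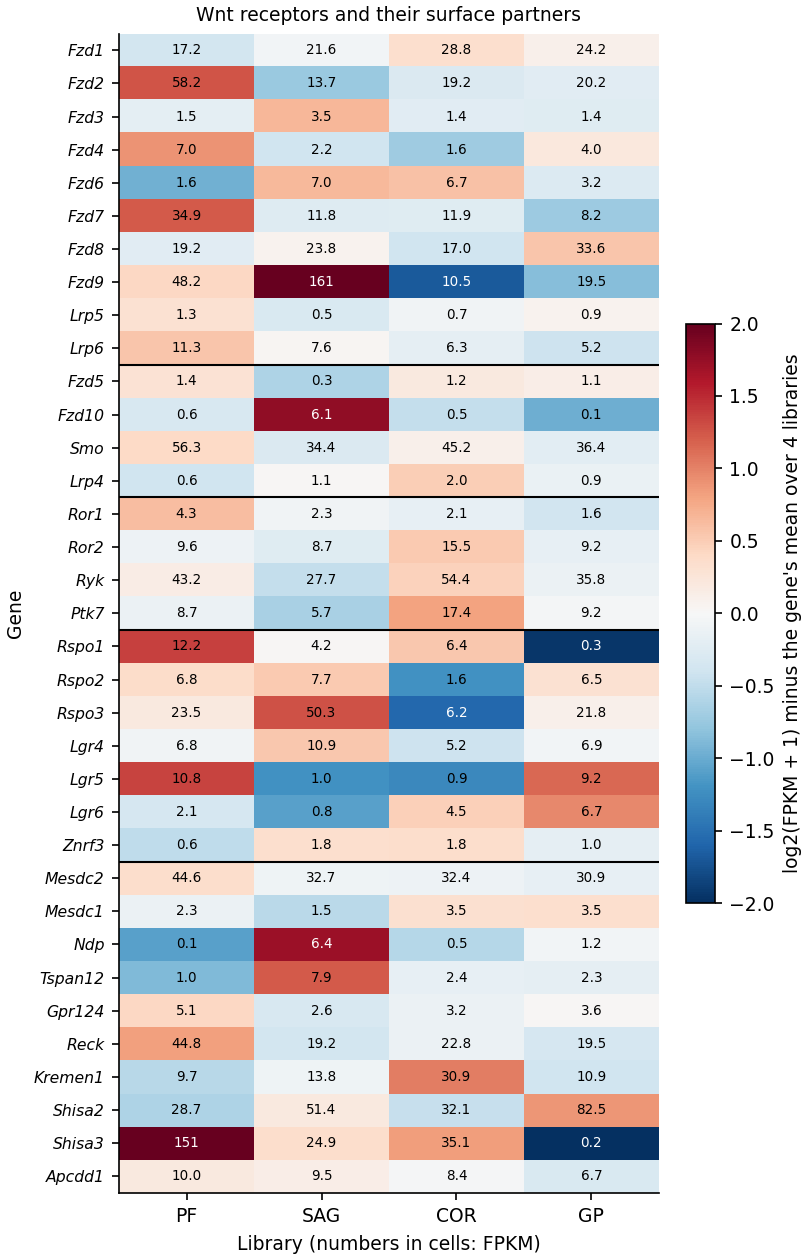
Heat map of 35 genes that reached 1 FPKM in a library: the 10 Wnt receptor genes and 25 genes of the 4 surface lists, separated by black lines. Colour is log2(FPKM + 1) minus the mean of the gene over the 4 libraries, capped at 2 in either direction, and numbers are FPKM. *Fzd2*, *Fzd7*, and *Shisa3* are red in PF, *Fzd9*, *Fzd10*, *Ndp*, *Tspan12*, and *Rspo3* are red in SAG, and *Lgr5* is red in PF and GP.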

How the data were processed

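CD51+;CD200+ cells of each tissue were sorted from pooled mice, and cDNA was amplified with a low-input kit before library preparation. According to the methods of the study and the submitters' processing notes, reads were mapped to mm9 (STAR 2.5.1b), and Cuffdiff (Cufflinks 2.2.1) gave abundances for an iGenomes annotation. The values deposited by the authors are in FPKM per gene symbol, and the library normalization is not given in the sources used here. No fragment counts were used.

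Levels were used as deposited. Log2 ratios used a pseudocount of 1 and an FPKM minimum of 1, reached in either library of a pair, and 3-fold was counted as different. With 1 library per tissue no test was made. Depth was estimated from the most frequent low value of FPKM times transcript length, for transcripts over 1500 bases. Lengths, positions, GC content, and coding sequences came from each gene's longest coding transcript (GENCODE vM1, mm9), found for 80.8% of symbols. Promoters were from RefSeq (GRCm38.p6). The receptor genes and gene lists were chosen with earlier results of these data known. Pathway genes were named when they were among the 3 with the largest fold of their list at 5 FPKM or more in the higher library, apart from *Fzd5*, *Fzd10*, *Axin2*, and *Ctnnb1*; other list and marker genes were named after their values were seen. For each receptor gene past 3-fold, the 3 nearest genes by profile were named. Alternatives were a pseudocount of 0.1, median-ratio scaling, quantile normalization, 3 other filters, 2-fold, and a loess GC correction (span 0.3, genes at 5 FPKM or above). No pseudocount and leaving out SAG were added after the data were seen. Fold counting was tested on simulated data with changes well above 3-fold in genes at 5 FPKM or more. That check does not cover ratios near the limit or lower levels.

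Software was pandas 2.3.3, numpy 2.4.6, statsmodels 0.14.6, biopython 1.88, and matplotlib 3.10.9 under Python 3.11.15.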

Additional observations from a re-analysis of the deposited data

How the results depend on the processing

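No paired analysis was possible because the tissues are represented by 1 library each. With 1 library per tissue, tissue and library cannot be told apart, and a scaling shifted the median of all genes by at most 0.08 on the log2 scale. Between 2 and 4 of the 60 receptor ratios changed sign under median-ratio scaling, quantile normalization, or GC correction, and none without a pseudocount or with 0.1; these were 8 ratios in all, of at most 0.31 as reported, and no ratio past 3-fold was among them. The largest shift was 0.67 (*Fzd9*, PF vs SAG) under the GC correction and 0.78 without a pseudocount.

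The number of receptor genes at least 3-fold different was 3 for PF vs SAG and 1 after GC correction, 2 for PF vs COR and 4 with a pseudocount of 0.1, and 1 for PF vs GP. At 2-fold the numbers were 5, 5, and 3. Over all genes, 4.40% to 15.7% passed 3-fold as reported and 8.26% to 27.4% with a pseudocount of 0.1. The median for PF vs SAG was -0.29 among genes with 1 FPKM or more in both libraries and -0.15 after GC correction, opposite to the 0.11 reported. For PF vs COR it was 0.76 with a pseudocount of 0.1, 1.11 with 5 FPKM or more in a library, 0.74 with 1 FPKM in both, and 0.67 after GC correction, and for PF vs GP it was 0.61, 0.98, 0.69, and 0.60 in that order. For COR vs SAG it was 0.00279 after quantile normalization, -0.0566 with 5 FPKM or more, and -0.12 after GC correction. For COR vs GP these were 0.15, 0.24, and 0.11, and for SAG vs GP it was 0.15 without a filter. Of the counts and medians recomputed, 68 stayed within 1.5 times or 0.1 of the value reported, and of the other values 197 stayed within these limits and 110 did not. Apart from the construction of each filter, the cause was not tested.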

Other observations

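Downstream of the receptors, the 15 genes of Dishevelled, the receptor kinases, and the β-catenin destruction complex had no member past 3-fold among the 14 compared in each of the 6 comparisons, where 4.40% to 15.7% of all genes passed. Their median log2 ratio was from -0.53 in PF vs COR to 0.16 in COR vs GP, and *Csnk1g1*, named after its values were seen, had 0.697 FPKM in PF and 3.16 in COR. *Ctnnb1*, which encodes β-catenin, had 263 FPKM in COR and between 158 and 177 in the other libraries. *Axin2*, a feedback target of cWnt signaling, was below 1 FPKM in every library, at 0.977 in SAG, 0.695 in COR, 0.512 in GP, and 0.125 in PF. It was thus lowest in the library with the highest *Fzd2*, *Fzd7*, and *Lrp6*. That library was also the shallowest by the depth estimate, at 43.1% of SAG. Of the 4 TCF/LEF genes, *Lef1* had 6.15 FPKM in SAG, 2.87 in GP, 1.88 in COR, and 0.180 in PF, and *Tcf7* was at 61.8 FPKM in COR and 6.06 to 10.5 in the other libraries.

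Of the 19 Wnt genes, 8 to 13 reached 1 FPKM and were compared. In PF vs GP 0 of 11 were at least 3-fold higher and 5 lower (5.72% and 6.24% of all genes), and in SAG vs GP 0 of 13 and 5 (4.8% and 3.86%). In COR vs SAG 5 of 11 were higher and 0 lower (3.11% and 6.15%), and in PF vs SAG 2 of 8 and 0 (6.64% and 9.04%). In PF vs COR 0 of 10 were higher and 3 lower (6.81% and 4.87%), and in COR vs GP 1 of 12 and 3 (1.2% and 3.2%). *Wnt16* was at 19.6 FPKM in GP and at most 2.39 in a suture. *Wnt5b* was at 41.5 FPKM in COR, and *Wnt10b* at 6.70 FPKM in COR and listed at 0 in PF. The 3 genes of Wnt release and removal (*Porcn*, *Wls*, and *Notum*) passed in no comparison. Of the 12 secreted antagonist genes, which bind Wnts or LRP, 2 of 11 compared were higher and 2 lower in PF vs COR (6.81% and 4.87% of all genes). In PF vs SAG 1 of 10 was higher and 0 lower (6.64% and 9.04%), and in COR vs SAG 3 of 11 and 0 (3.11% and 6.15%). In PF vs GP 1 of 11 was higher and 3 lower (5.72% and 6.24%), and in SAG vs GP 0 of 11 and 3 (4.8% and 3.86%). In COR vs GP 1 of 11 was higher and 3 lower (1.2% and 3.2%). With so few genes these shares are descriptions. *Sfrp2* was at 1041 FPKM in PF and 66.2 to 133 in the other libraries, *Sfrp5* at 17.1 in GP and 0.594 to 3.29 in the sutures, and *Sostdc1* at 102 in GP and 12.3 to 36.0 in the sutures.

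Markers of neurons summed to at most 10.4 FPKM in a library, in COR, where *Tubb3* alone was at 10.2. Without *Tubb3*, a step chosen after seeing the data, the sum was 4.65 in SAG, 1.28 in GP, 0.657 in PF, and 0.133 in COR. *Snap25* was at 2.21 FPKM in SAG and at 0 in PF, COR, and GP. Glial markers summed to 26.8 FPKM in SAG to 132 in GP, and *Aqp4* and *Olig2* were at 0 in PF, COR, and GP. Endothelial markers summed to 1.22 FPKM in COR to 16.9 in SAG, where *Kdr* alone was at 14.9.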
